A study of Mus musculus and Homo sapiens with 20 samples.

Results

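These regions are the mouse hepatocyte sites of open chromatin that were listed in every library of one vitamin B2 condition and in no library of the other. The peak lists of 12 hepatocyte libraries (build mm10, chromosomes 1 to 19 and X) were merged wherever peaks overlapped by at least 1 bp, which gave 642948 regions. A total of 45 regions had a peak in all 6 B2_minus libraries and in none of the 6 Cont libraries (0.00700% of the regions). Another 76 had a peak in all 6 Cont libraries and in none of the 6 B2_minus libraries (0.0118%). The regions were thus chosen by the presence or absence of listed peaks in both conditions, so every difference between B2_minus and Cont at them is a description and carries no test. The comparison of Ad_Cre with Ad_Cont within a condition is not what the rule contrasts, and it was tested. The rule does ask for a listed peak with both Ad labels, which bars sites listed with only 1 of them.

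The series used ATAC-seq to study how the receptor AhR responds to vitamin B2. The hepatocytes are labelled AhR_flox, so all 12 libraries carry the floxed allele, and all are labelled 4 weeks. There were 4 groups of 3 libraries, which were B2_minus with Ad_Cre, B2_minus with Ad_Cont, Cont with Ad_Cre and Cont with Ad_Cont, where B2_minus is vitamin B2 deficiency and Cont its control. The extract protocol speaks of cultured cells. Nothing in the labels tells whether the 3 libraries of a group come from different animals or cultures, so every p-value below reflects the spread among these libraries alone, and that spread may be technical. Cre is the recombinase that deletes DNA lying between loxP sites. Whether the floxed part of Ahr was lost in the Ad_Cre libraries was not checked here, since its position is not given in the sources used here.

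In ATAC-seq, the transposase Tn5 inserts sequencing adapters where DNA is not wrapped in nucleosomes or otherwise covered, so that tags pile up at active promoters and enhancers. Vitamin B2, or riboflavin, is the precursor of the flavin cofactors FMN and FAD, which many hepatocyte enzymes of fatty acid oxidation, respiration and redox defence carry. AhR is a ligand-activated transcription factor that binds, with its partner ARNT, to a short DNA element and switches on genes of xenobiotic metabolism.

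Of the regions exclusive to one condition, 4 covered bases of a start window of a protein-coding gene (P3h1, Mark1, Alas1 and Slc35f3), as listed by RefSeq (GRCm38.p6, the assembly of mm10). The window runs from 250 bases before to 50 after an annotated transcription start. The windows of P3h1, Mark1 and Alas1 are shown as sites where an exclusive peak touched a promoter, that of Slc35f3 is not printed here, and capitals mark the bases that lay inside the exclusive region. The P3h1 window (chr4:119233579-119233878, plus strand) and the Mark1 window (chr1:184999500-184999799, minus strand) were touched by regions exclusive to B2_minus. The Alas1 window (chr9:106247681-106247980, minus strand) was touched by a region exclusive to Cont, as was that of Slc35f3. Each is written 5′ to 3′ on the strand of its gene.
P3h1: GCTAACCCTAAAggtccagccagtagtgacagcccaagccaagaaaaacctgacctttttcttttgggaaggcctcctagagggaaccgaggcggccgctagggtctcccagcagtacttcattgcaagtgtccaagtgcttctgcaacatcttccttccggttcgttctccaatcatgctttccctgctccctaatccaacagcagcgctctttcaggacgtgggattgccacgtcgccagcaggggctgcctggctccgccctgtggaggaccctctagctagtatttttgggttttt
Mark1: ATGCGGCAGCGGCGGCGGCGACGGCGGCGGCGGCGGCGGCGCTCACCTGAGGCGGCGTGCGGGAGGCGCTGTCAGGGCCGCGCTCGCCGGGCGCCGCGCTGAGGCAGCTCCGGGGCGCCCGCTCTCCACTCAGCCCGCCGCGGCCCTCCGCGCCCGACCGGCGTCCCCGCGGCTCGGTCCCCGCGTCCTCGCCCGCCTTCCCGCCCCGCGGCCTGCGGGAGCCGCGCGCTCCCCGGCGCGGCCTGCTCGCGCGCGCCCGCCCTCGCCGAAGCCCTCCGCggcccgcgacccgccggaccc
Alas1: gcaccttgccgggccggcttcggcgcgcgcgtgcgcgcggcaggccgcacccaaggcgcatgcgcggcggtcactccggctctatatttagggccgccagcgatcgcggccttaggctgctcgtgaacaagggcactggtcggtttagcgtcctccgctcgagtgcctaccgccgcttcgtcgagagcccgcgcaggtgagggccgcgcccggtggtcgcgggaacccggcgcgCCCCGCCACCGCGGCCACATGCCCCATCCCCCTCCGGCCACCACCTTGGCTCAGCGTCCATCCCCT
The region exclusive to B2_minus covered 12 bases of the P3h1 window and 279 of the Mark1 window. The region exclusive to Cont covered 66 bases of the Alas1 window and all 300 of the Slc35f3 window. The windows of P3h1, Mark1, Alas1 and Slc35f3 all belong to a listed start downstream of the gene's 5′ end. In P3h1 and Alas1 the bases covered lie at an edge of the window. The window of Mark1 was 85.7% G and C, that of Slc35f3 76%, that of Alas1 73.3% and that of P3h1 54.7%.

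The 5-base core of the AhR element, GCGTG, was searched on both strands of these windows, as was TGACNNNGC, the core of the antioxidant response element bound by NRF2. The Mark1 window held 1 match to each, both inside the exclusive region and not overlapping each other. The Alas1 window held 1 GCGTG, which lay outside the region exclusive to Cont, and no TGACNNNGC. Neither the P3h1 nor the Slc35f3 window held a match to either motif. Over all 32851 promoter windows of the table, 10639 (32.4%) held GCGTG and 4071 (12.4%) held TGACNNNGC, so a match in a window of this length is common. Windows of Gm39728 and Gm31486 were also touched, over 95 and 217 bases.

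The peak lists held 206940 to 235220 peaks in the B2_minus libraries and 200698 to 281141 in the Cont libraries, with 3897632 to 5557678 tags in listed peaks per library over all 12. The sequencing depth is unknown, since only listed peaks carry counts. The lowest count in a list was 6 or 7 tags in the B2_minus libraries and 7 or 8 in the Cont libraries. A site below that limit is missing from the list, so "no peak" means that no peak was listed and not that accessibility was absent. As a check of the cell label, 8 of 8 hepatocyte marker genes (Alb, Apoa1, Apob, Ttr, Trf, Serpina1a, Cps1 and Hnf4a) had a region listed in all 12 libraries within 1 kb of a gene end, at a highest mean of 13 to 88.2 tags. The same held for 2 of 6 endothelial (Kdr and Lyve1), 3 of 5 stellate (Lrat, Des and Reln) and 1 of 6 Kupffer cell markers (Spi1). It also held for 3 of 6 bile duct markers (Epcam, Sox9 and Spp1). In this order of cell types the highest means reached 33.4, 32.8, 54.3 and 74.4 tags, above the 13 tags of the weakest hepatocyte marker. The other markers, among them Stab2, Pecam1, Adgre1, Clec4f, Krt7 and Krt19, had no such region. In these bulk libraries, fewer cells of a type and less open chromatin per cell cannot be told apart.

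By its construction the rule depends on how many peaks each library lists. The B2_minus lists averaged 222382 ± 12506 peaks and the Cont lists 251079 ± 31708 (SD, n = 6 each), a difference of -28697 peaks that did not pass an exact two-sided permutation test (p = 0.0758). It was -45249 in the Ad_Cre libraries (exact permutation p = 0.1, the smallest that 3 against 3 allows) and -12145 in the Ad_Cont libraries (exact permutation p = 0.7). Without Cont Ad_Cont replicate 1, which had the shortest list, the difference was -38774 (exact permutation p = 0.0130). Counting only peaks of at least 10 tags it was -9683 (exact permutation p = 0.277). With every list cut to the same length, its 200698 strongest peaks, the balance turned, to 71 regions exclusive to B2_minus and 35 exclusive to Cont, of which 20 and 19 were among the 45 and 76. With peaks of at least 8 tags alone, a limit that every list reaches, there were 16 and 122, of which 6 and 16 were among the 45 and 76.

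The exclusive regions are the far ends of a wide distribution. There were 13746 regions with a peak in exactly 6 of the 12 libraries, and 13625 of these drew on both conditions. By the number of B2_minus libraries among the 6, from 0 to 6, the counts were 76, 901, 3410, 5222, 3301, 791 and 45. By the number of Ad_Cre libraries among the 6, they were 14, 402, 2798, 5738, 3923, 836 and 35. The same rule applied to the Ad label thus gave 35 regions exclusive to Ad_Cre and 14 exclusive to Ad_Cont, beside the 45 and 76 of the B2 condition. The Ad counts were not redone with lists of equal length or a common lowest count, and the labels were not tested against each other.

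**Figure D1:**
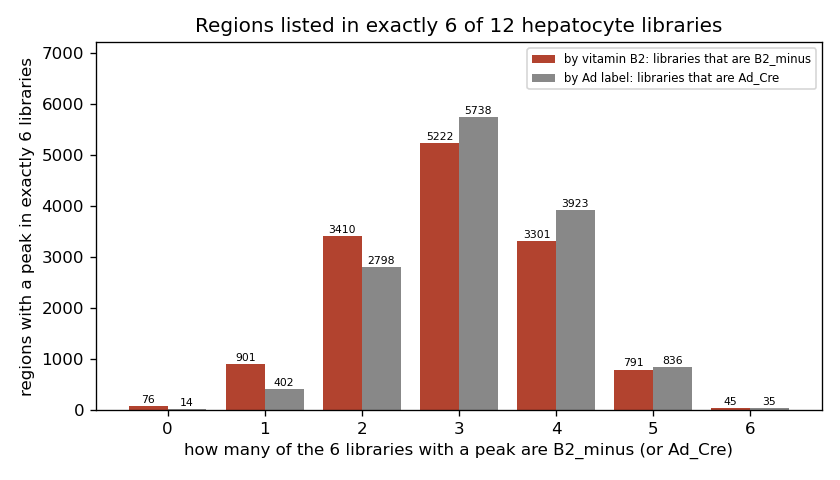
Number of regions with a peak in exactly 6 of the 12 hepatocyte libraries (vertical axis), by how many of those 6 libraries were B2_minus (red) or Ad_Cre (grey). The bars at 6 and 0 are the exclusive regions, with 45 and 76 regions by vitamin B2 condition and 35 and 14 by Ad label, against 5222 and 5738 regions split evenly.

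Regions just short of the rule were several times as many as those inside it. A peak in all 6 B2_minus libraries and 1 Cont library was found in 229 regions, and in 5 B2_minus libraries and no Cont library in 192 regions. A peak in all 6 Cont libraries and 1 B2_minus library was found in 229 regions, and in 5 Cont libraries and no B2_minus library in 371. The median of the mean tags was 8.5 in the regions inside the rule for B2_minus, and 8.5 and 7.8 in those just outside. For Cont it was 9 inside the rule, and 9.17 and 8.4 just outside. Where 1 library of the other condition broke the rule, its median count was 8 tags in the Cont library and 7 tags in the B2_minus library, next to the lowest counts listed. Some of these counts were far higher, up to 47 tags in the Cont library and 30 in the B2_minus library.

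Nearly all of the exclusive regions were weak sites. The mean over the 6 libraries ranged from 7 to 24 tags in the regions exclusive to B2_minus, and from 7.33 to 25.2 in those exclusive to Cont. Regions listed in all 12 libraries had a median of 23.3 tags, and the other regions listed in exactly 6 libraries 8.33. In 29 of the 45 regions exclusive to B2_minus at least 1 library stood at 6 tags, the lowest count in any list, and in 39 at 7 or fewer. In 60 of the 76 regions exclusive to Cont the lowest library stood at 7 tags. A lowest library of 10 or more tags was found in 2 regions exclusive to B2_minus (P3h1 and Tent5c) and in 1 exclusive to Cont (Alas1). A mean of at least 12 tags was reached by P3h1 and Tent5c in B2_minus and by Alas1 and Rap1gap2 in Cont. The other 43 and 74 regions had means of at most 11.3 and 11.7 tags.

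**Figure D2:**
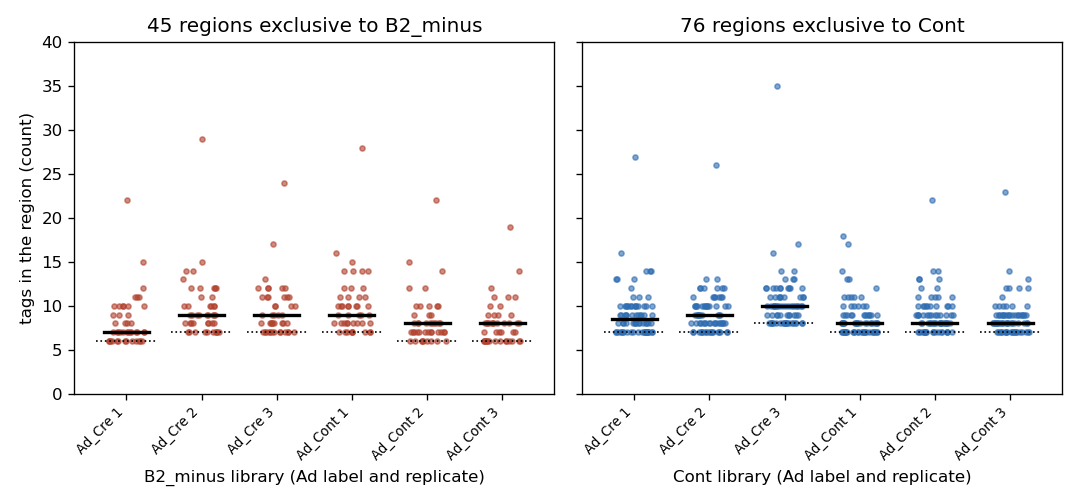
Tags (count, vertical axis) in each exclusive region by library, with the 45 regions exclusive to B2_minus on the left and the 76 exclusive to Cont on the right. Points are regions, thick lines the library's median over them and dotted lines the lowest count in that library's list, so most points lie within a few tags of the limit and 1 point per library, the P3h1 or the Alas1 region, reaches 18 to 35 tags.

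The strongest region exclusive to B2_minus lay in P3h1, which encodes a prolyl hydroxylase that modifies collagen chains in the endoplasmic reticulum (chr4:119233189-119233590, starting 274 bp downstream of the gene's 5′ end). Its counts were 22, 29 and 24 tags in the B2_minus Ad_Cre libraries and 28, 22 and 19 in the B2_minus Ad_Cont libraries, with a mean of 24. No Cont library listed a peak there. All 12 libraries listed the peak at the gene's 5′ end, with 80 to 106 tags in B2_minus and 88 to 112 in Cont, and all 12 listed a further peak downstream of the exclusive region. The Cont libraries' nearest peak began 11 to 97 bp from the exclusive region and held 38 to 61 tags. Summed over peaks within 500 bp of the region, B2_minus libraries held 149 to 193 tags and Cont libraries 134 to 173, and these ranges overlap. The B2_minus sums include the exclusive peak itself. The P3h1 region is thus an additional listed peak between a pair of stronger ones that both conditions shared.

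The strongest region exclusive to Cont lay in Alas1, which encodes the rate-limiting enzyme of haem synthesis in the liver (chr9:106247313-106247746, starting 208 bp downstream of the 5′ end). Its counts were 27, 26 and 35 tags in the Cont Ad_Cre libraries and 18, 22 and 23 in the Cont Ad_Cont libraries, with a mean of 25.2. No B2_minus library listed a peak there. All 12 libraries listed the peak at the 5′ end, with 40 to 49 tags in B2_minus and 44 to 60 in Cont. The B2_minus libraries' nearest peak began 20 to 181 bp from the exclusive region. Summed over peaks within 500 bp, B2_minus libraries held 54 to 72 tags and Cont libraries 68 to 127, which overlap only at the edge. The Cont sums include the exclusive peak itself, with its 18 to 35 tags, which the rule keeps out of B2_minus. With that peak taken off, the Cont sums span the range of the B2_minus sums, so much of this gap follows from the choice of the region. A wider loss of signal was not tested. The position of this peak varied between Cont libraries, and in Ad_Cre replicate 3 it lay closest to the promoter peak.

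**Figure D3:**
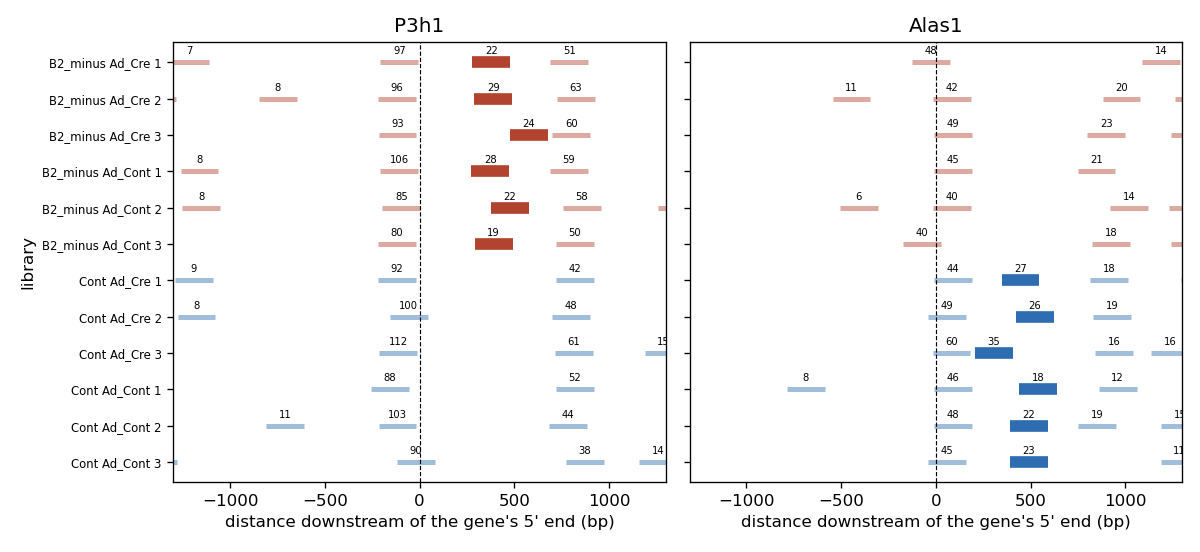
Peaks of each library around the 5′ ends of P3h1 and Alas1 (horizontal axis in bp downstream of the 5′ end, dashed line at 0; 1 row per library, B2_minus in red above Cont in blue). Bars are the listed 200 bp peaks with their tags, and thick bars the exclusive region, which held 19 to 29 tags in B2_minus at P3h1 and 18 to 35 tags in Cont at Alas1 while the peak at the 5′ end was listed in all 12 libraries at both genes.

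Whether the other condition had a peak close by was read for every exclusive region. All 6 Cont libraries had a peak within 400 bp of 9 of the 45 regions exclusive to B2_minus (20%), and all 6 B2_minus libraries had one within 400 bp of 9 of the 76 exclusive to Cont (11.8%). Among the other regions listed in exactly 6 libraries, all 6 libraries without the peak had one within 400 bp in 32.3%. No library of the other condition had a peak within 1 kb of 14 regions exclusive to B2_minus (31.1%, 19.5 to 45.7). The same held for 27 exclusive to Cont (35.5%, 25.7 to 46.7), against 20.4% of the other regions listed in exactly 6 libraries. No such peak lay within 5 kb of 3 regions exclusive to B2_minus (6.67%) and 8 exclusive to Cont (10.5%), against 6.03%. Both B2_minus intervals hold the value of the other regions, and both Cont intervals do not. These intervals cover counting error only. The regions standing most alone were those in Agr3 and Plac1 and beside Tet1 for B2_minus. For Cont they were those in Atp6v0a4, Ctnna2, Krt90, Epha6, Stra6 and Nsf, and 2 far from any protein-coding gene, 309329 bp from Bmp4 and 274420 bp from 4930595M18Rik. The 2 strongest regions stood at the other extreme, with a median distance of 43 bp for P3h1 and 22 bp for Alas1 to the nearest peak of the other condition.

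**Figure D4:**
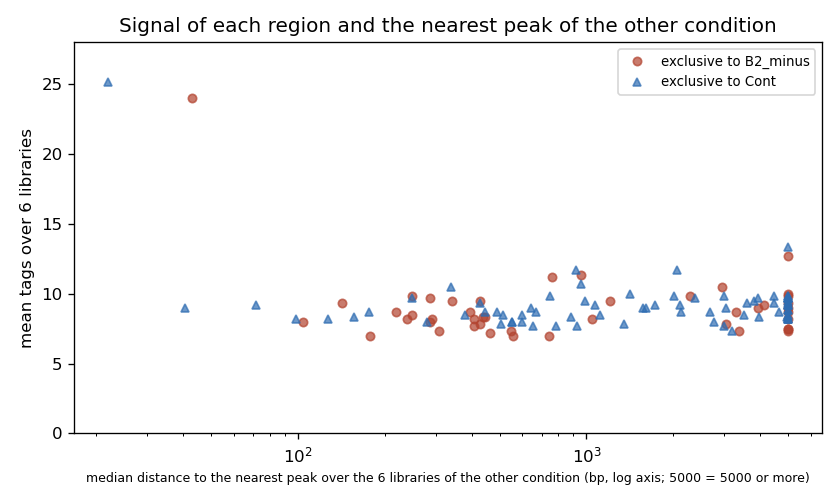
Mean tags of each exclusive region (vertical axis) against the median distance to the nearest peak over the 6 libraries of the other condition (bp, log axis, with distances above 5000 bp drawn at 5000). Red circles are the 45 regions exclusive to B2_minus and blue triangles the 76 exclusive to Cont, and the points at 24 and 25.2 tags, P3h1 and Alas1, lie 43 and 22 bp from the other condition's peaks.

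Against protein-coding genes, 26 of 45 regions exclusive to B2_minus (57.8%, Wilson 95% interval 43.3 to 71.0) and 45 of 76 exclusive to Cont (59.2%, 48.0 to 69.6) lay inside a gene. The share was 63.5% among the other regions listed in exactly 6 libraries and 60.5% over all regions, within both intervals. Of the 19 and 31 regions outside genes, the median distance to the nearest gene was 11270 bp for B2_minus and 25941 bp for Cont, against 15672 bp for the other regions listed in exactly 6 libraries. The farthest lay 151373 bp from Tmem17 for B2_minus and 374103 bp from Fam174a for Cont. A gene end lay within 1 kb of 10 regions exclusive to B2_minus (22.2%, 12.5 to 36.3) and 11 exclusive to Cont (14.5%, 8.28 to 24.1), against 15.8% of the others. More than 50 kb from any protein-coding gene lay 5 (11.1%, 4.84 to 23.5) and 12 (15.8%, 9.27 to 25.6), against 10.2%. With all annotated genes counted, this share was 2.22% and 1.32%. These intervals cover counting error only and hold the value of the other regions in each case. The median width was 324 bp for B2_minus and 425.5 bp for Cont, against 382 bp.

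Within 50 kb, 40 regions exclusive to B2_minus were assigned to 40 genes and 64 exclusive to Cont to 63 genes, with no gene in both directions. Rnf213, which encodes a very large ubiquitin ligase with an ATPase domain, was the only gene with more than 1 region, and it had 2, both exclusive to Cont and both inside the gene. They began 19549 and 24766 bp downstream of its 5′ end and averaged 8.67 and 9.17 tags. The regions exclusive to B2_minus fell on 17 chromosomes, with at most 6 on 1 of them (chromosome 6). Those exclusive to Cont fell on all 20, with at most 9 on 1 of them (chromosome 11).

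At gene ends, the regions exclusive to B2_minus lay nearer the 5′ end of the gene in 4 cases, nearer the 3′ end in 4, and in 2 the strand was not given by the table used. Beside P3h1, those at a 5′ end were in Mark1, a kinase that phosphorylates microtubule-associated proteins, in Spin4, and in Fam227b 411 bp from the 5′ end of Dtwd1. The Mark1 region held 6, 8 and 12 tags in B2_minus Ad_Cre libraries and 15, 9 and 8 in B2_minus Ad_Cont libraries. Its counts spread widely within each group, and 3 of the 6 Cont libraries had a peak within 400 bp. The region beside Dtwd1 held 7, 12 and 9 tags in B2_minus Ad_Cre libraries and 8, 7 and 6 in B2_minus Ad_Cont libraries, and lay 265 to 453 bp from a Cont peak of 73 to 110 tags. That region is therefore a weak site beside a strong one that Cont libraries listed.

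At 3′ ends, the B2_minus regions were beside 4930432M17Rik, Tet1, Mfsd4b5 and Kcng3. Tet1 encodes an enzyme that oxidises methylated cytosine in DNA, and its region, 181 bp past the 3′ end, held 11, 7 and 7 tags in B2_minus Ad_Cre libraries and 10, 8 and 6 in B2_minus Ad_Cont libraries. The nearest Cont peak lay 10875 to 11314 bp away. The 4930432M17Rik region, 83 bp past the 3′ end, held 10, 9 and 12 tags in B2_minus Ad_Cre libraries and 10, 8 and 10 in B2_minus Ad_Cont libraries. All 6 Cont libraries had a peak within 400 bp of it. Regions near ends of Tmem241 and Otud6b, whose strand was not given, averaged 7.33 tags each.

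Of the 11 regions exclusive to Cont at a gene end, 2 lay nearer a 5′ end (Alas1 and Slc35f3), 6 nearer a 3′ end (Rnf187, Krt90, Spp1, Igfbp4, Nckap5l and Fes), and 3 had no strand (Shisa6, Hdac3 and Mepce). Slc35f3 encodes a membrane protein of a solute carrier family, and its region held 11, 13 and 8 tags in Cont Ad_Cre libraries and 7, 7 and 8 in Cont Ad_Cont libraries. It was the only region to cover a whole start window, and 3 of the 6 B2_minus libraries had a peak within 400 bp. The region 170 bp past the 3′ end of Igfbp4, which encodes a secreted binding protein of insulin-like growth factors, held 10, 8 and 11 tags in Cont Ad_Cre libraries and 7, 8 and 10 in Cont Ad_Cont libraries. The region 172 bp from Hdac3, the histone deacetylase of the nuclear receptor corepressor complexes, held 7, 7 and 10 tags in Cont Ad_Cre libraries and 8 in each Cont Ad_Cont library. It lay 441 to 630 bp from B2_minus peaks of 84 tags or more, so a strong peak stood beside it in the other condition. The other regions at gene ends averaged 7.67 to 9.67 tags.

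Inside genes and away from their ends, the strongest regions exclusive to B2_minus were in Dmd, Agr3 and Plac1, followed by Man2a1 and Tspan18, which tied at a mean of 9.5 tags. Dmd encodes dystrophin, a muscle protein of the cell cortex, and its region held 9, 10 and 17 tags in B2_minus Ad_Cre libraries and 14, 10 and 8 in B2_minus Ad_Cont libraries. The Plac1 region, in a gene known for its expression in placenta, held 9 tags in each B2_minus Ad_Cre library and 10, 8 and 14 in B2_minus Ad_Cont libraries. The Man2a1 region, in the gene of a Golgi mannosidase that trims N-linked sugar chains, held 7, 12 and 8 tags in B2_minus Ad_Cre libraries and 14, 8 and 8 in B2_minus Ad_Cont libraries. In Dmd, Plac1 and Man2a1 the Ad_Cre and Ad_Cont counts overlapped, and no count was above 17 tags.

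Outside genes, the second strongest region exclusive to B2_minus lay 123906 bp past the 3′ end of Tent5c, its nearest protein-coding gene, which encodes a non-canonical poly(A) polymerase (chr3:100343836-100344151). It held 15, 15 and 13 tags in B2_minus Ad_Cre libraries and 10, 12 and 11 in B2_minus Ad_Cont libraries. Every Ad_Cre count was above every Ad_Cont count there, but the difference did not pass the test given below. The Cont libraries' nearest peak lay at a median of 10063 bp. The region 87519 bp from Rnf152, a ubiquitin ligase of lysosomes, held 12, 10 and 12 tags in B2_minus Ad_Cre libraries and 11, 14 and 8 in B2_minus Ad_Cont libraries. Regions near H2bfm, Slc4a8 and Ppp2r5c (19498, 11270 and 1016 bp upstream of the 5′ ends) averaged 10.5, 9.83 and 9.5 tags. The Ppp2r5c region lay 328 to 383 bp from Cont peaks of 70 to 86 tags.

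Inside genes, the regions exclusive to Cont that followed Alas1 were in Rap1gap2, Lect2 and Emilin2. Rap1gap2 encodes an activator of GTP hydrolysis by the small GTPase Rap1, and its region held 14, 10 and 17 tags in Cont Ad_Cre libraries and 17, 14 and 8 in Cont Ad_Cont libraries. Lect2 encodes a protein that hepatocytes secrete, and its region, 3295 bp downstream of the 5′ end, held 16, 12 and 11 tags in Cont Ad_Cre libraries and 11, 11 and 9 in Cont Ad_Cont libraries. Emilin2 encodes a glycoprotein of the extracellular matrix, and its region held 8, 12 and 13 tags in Cont Ad_Cre libraries and 11, 14 and 12 in Cont Ad_Cont libraries. The Ad_Cre and Ad_Cont counts overlapped or touched in all 3 genes. The next regions, in Sf1, Atp6v0a4, Ctnna2, Gprc5b and Kcnn4, each averaged 9.83 tags, with single counts between 7 and 14, and a region in Ctdspl tied with them. Of these, Atp6v0a4, a subunit of the proton pump of the kidney collecting duct, and Ctnna2, the alpha-catenin of neurons, had their nearest B2_minus peak at least 9037 and 6894 bp away.

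Outside genes, the region 150909 bp past the 3′ end of Irf8, the transcription factor of the myeloid lineage, held 7, 11 and 16 tags in Cont Ad_Cre libraries and 10 in each Cont Ad_Cont library. The region 9539 bp upstream of Fbln2, which encodes a fibulin of the extracellular matrix, held 10, 9 and 12 tags in Cont Ad_Cre libraries and 8, 10 and 14 in Cont Ad_Cont libraries. All 6 B2_minus libraries had a peak of 14 to 26 tags within 400 bp of it. The region 25941 bp upstream of Zfp365 held 14, 11 and 10 tags in Cont Ad_Cre libraries and 7, 11 and 7 in Cont Ad_Cont libraries.

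Of 20 gene lists for liver metabolism, AhR, riboflavin, stress and cell types, with 335 distinct genes, 3 of 45 regions exclusive to B2_minus (6.67%) and 3 of 76 exclusive to Cont (3.95%) were assigned to a listed gene. The share was 2.91% for the other regions listed in exactly 6 libraries and 2.31% over all regions. For B2_minus they were Itpr1 on the list of AhR and its targets, Cyp2b10 on that of xenobiotic and bile acid metabolism, and Pck1 on that of glucose metabolism. For Cont they were Slc52a2 on the list of riboflavin and flavin cofactor metabolism, Srxn1 on that of NRF2 and its targets, and Spp1 on those of YAP targets and of bile duct cells.

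The Slc52a2 region is the only one in a gene of riboflavin handling, since this gene encodes a riboflavin transporter of the plasma membrane (chr15:76540290-76540827, 1476 bp from the nearer gene end). It held 10, 10 and 8 tags in Cont Ad_Cre libraries and 7, 8 and 8 in Cont Ad_Cont libraries. All 6 B2_minus libraries had a peak of 11 to 27 tags within 1 kb. The gene is thus not without listed open chromatin in B2_minus.

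The Itpr1 region, in the gene of an endoplasmic reticulum calcium channel, held 10, 9 and 7 tags in B2_minus Ad_Cre libraries and 12, 8 and 8 in B2_minus Ad_Cont libraries, and no Cont library had a peak within 1 kb. The region 27383 bp upstream of Cyp2b10, a drug-metabolising cytochrome P450 of the liver, held 6, 8 and 8 tags in B2_minus Ad_Cre libraries and 7, 9 and 6 in B2_minus Ad_Cont libraries. The region 5155 bp past the 3′ end of Pck1, the enzyme that commits carbon to gluconeogenesis, held 6, 8 and 12 tags in B2_minus Ad_Cre libraries and 9, 9 and 8 in B2_minus Ad_Cont libraries. All of these stood within a few tags of the lowest counts listed.

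The region 2815 bp upstream of Srxn1, whose product restores oxidised peroxiredoxins, held 9 tags in each Cont Ad_Cre library and 7, 9 and 8 in Cont Ad_Cont libraries. A B2_minus peak lay within 400 bp of it in 5 of the 6 libraries, and the nearest B2_minus peaks held 12 to 20 tags. The region covering the 3′ end of Spp1, which encodes the secreted phosphoprotein osteopontin, held 7, 12 and 14 tags in Cont Ad_Cre libraries and 9, 9 and 7 in Cont Ad_Cont libraries. The other 13 lists had no exclusive region in either direction. They are the lists of flavin-dependent enzymes, fatty acid synthesis, fatty acid oxidation, cholesterol synthesis, hepatocyte identity, inflammation, the integrated stress response, the circadian clock, immediate early genes, the cell cycle, and endothelial, stellate and Kupffer cell markers.

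Whether a difference between conditions seen with one Ad label also appears with the other was described by choosing regions in one arm and reading the other. Of 1429 regions with a peak in all 3 B2_minus Ad_Cre libraries and no Cont Ad_Cre library, 43.0% had a peak in more B2_minus than Cont libraries of the Ad_Cont arm and 21.2% in fewer. Of 3018 chosen the other way, 40.2% had a peak in more Cont than B2_minus libraries of the Ad_Cont arm and 20.7% in fewer. Chosen in the Ad_Cont arm and read in the Ad_Cre arm, 40.4% of 2149 regions exclusive to B2_minus kept the direction and 26.0% opposed it, and 49.6% of 1647 exclusive to Cont kept it and 19.9% opposed it. Full exclusivity in both arms, which is what the rule asks, was reached by 45 and 76. The opposite exclusivity in the other arm was reached by 9 to 21 regions. More regions kept the direction than opposed it in each of the 4 readings. The 45 and 76 are among those that kept it, by the rule itself, and no share over all regions was set beside these values. List length moved with the same groups, and its part in these shares was not tested.

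Ad_Cre was tested against Ad_Cont within each condition, on all regions listed in all 6 libraries of that condition, with edgeR's quasi-likelihood test and Benjamini-Hochberg adjustment at 0.05. All 45 and all 76 exclusive regions were in these fits, since the rule requires a peak in all 6 libraries. For the same reason, a site whose peak was listed with only 1 Ad label could not be chosen or fitted. At these weak regions that limits how large a difference could be, so the absence of calls there carries little weight. In B2_minus, 118190 regions were tested, of which 2 were higher (0.00169%) and 1 was lower (0.000846%) in Ad_Cre, and 0 of the 45 exclusive regions were called. At an unadjusted p under 0.05 there was 1 of 45 (2.22%), against 8551 of all regions tested (7.23%). In Cont, 113121 regions were tested, of which 2 were higher (0.00177%) and 4 were lower (0.00354%) in Ad_Cre, and 0 of the 76 exclusive regions were called. At an unadjusted p under 0.05 there were 4 of 76 (5.26%), against 8681 of all regions tested (7.67%). DESeq2, limma on log2(tags + 1) and edgeR with its variance bounded at Poisson also called 0 exclusive regions and 0 regions in all, in either condition. The main fit lets the variance fall below Poisson, the spread of counting alone. Bounded at Poisson, 2746 regions in B2_minus and 2927 in Cont had an unadjusted p under 0.05, fewer than in the main fit. The standard errors and unadjusted p-values given here may therefore be too small. In simulated data of the same size, the test recovered 45.5% of 200 regions changed 2-fold in B2_minus and 51.5% in Cont, with 9 false calls each. The 200 were drawn at random from all regions tested, with Poisson counts and no lowest listed count. Most regions tested were listed in all 12 libraries, where the median was 23.3 tags. Recovery at the weaker exclusive regions was not measured.

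The median log2 fold change of Ad_Cre over Ad_Cont was 0.02 over the 45 regions exclusive to B2_minus and -0.04 over the 76 exclusive to Cont, against 0.00 over all regions in both fits. The exclusive regions ran from -0.83 to 0.36 in B2_minus and from -0.71 to 0.59 in Cont, with a median standard error of 0.248 and 0.231. In B2_minus 24 of the 45 were above 0, against 50.0% of all regions tested, and in Cont 36 of the 76, against 50.5%. Limma on log2(tags + 1), with no scaling for library size, put 30 of 45 and 53 of 76 above 0, against 60.4% and 71.1% of all regions. Its medians were 0.07 over the 45 and 0.08 over the 76, against 0.05 and 0.10 over all regions tested, so the sign of the Cont median turned. With 1 library left out, 20 to 29 of the 45 and 29 to 41 of the 76 were above 0, and both medians took either sign.

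**Figure D5:**
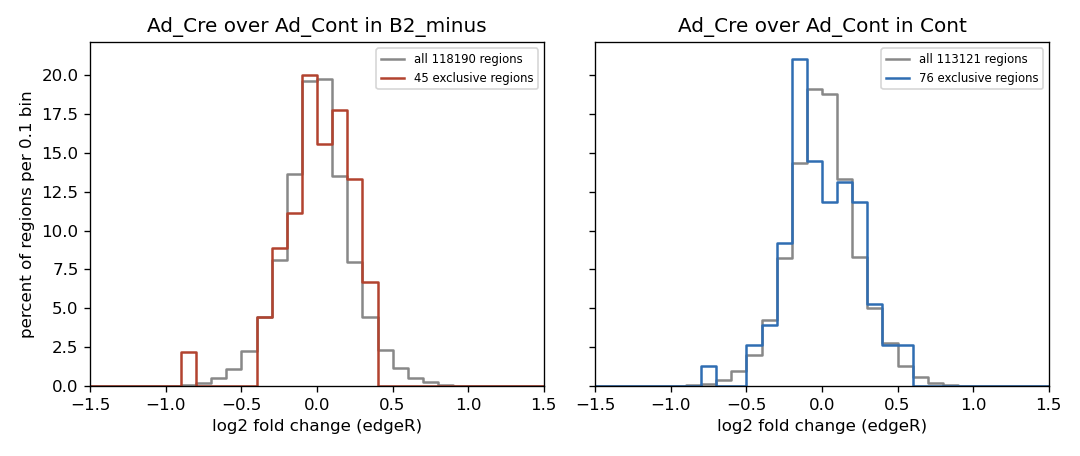
Log2 fold change of Ad_Cre over Ad_Cont by edgeR (horizontal axis) in B2_minus (left) and Cont (right), as the percent of regions in each bin of 0.1. The coloured lines are the 45 and 76 exclusive regions and the grey lines all 118190 and 113121 regions tested, and both are centred near 0, with 1 exclusive region in B2_minus (Agr3) near -0.83.

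The region with the lowest p in B2_minus was in Agr3, which encodes a member of the protein disulfide isomerase family (chr12:35947732-35948234, 1503 bp from the gene's 3′ end). It held 7, 8 and 7 tags in B2_minus Ad_Cre libraries and 16, 10 and 12 in B2_minus Ad_Cont libraries. The groups did not overlap, and the log2 fold change was -0.83 ± 0.257 (SE; adjusted p = 0.385 by edgeR). The nearest Cont peak lay at least 9055 bp away. The Tent5c region, at 14.3 ± 1.15 tags with Ad_Cre and 11 ± 1 with Ad_Cont (SD, n = 3 each), had a log2 fold change of 0.33 ± 0.258 (SE; adjusted p = 0.838 by edgeR). The other regions in B2_minus with the lowest p in their direction (Mark1, Milr1, Tmem17 and Fam227b) had log2 fold changes of -0.35 to 0.36.

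In Cont, the region with the lowest p lay 111591 bp upstream of Tnfaip3, its nearest protein-coding gene, which encodes an inhibitor of NF-kappaB signalling. It held 7, 7 and 9 tags in Cont Ad_Cre libraries and 11, 11 and 13 in Cont Ad_Cont libraries, without overlap, and its log2 fold change was -0.71 ± 0.239 (SE; adjusted p = 0.373 by edgeR). The region in Pald1 held 10, 12 and 14 tags in Cont Ad_Cre libraries and 8, 7 and 7 in Cont Ad_Cont libraries, with a log2 fold change of 0.59 ± 0.239 (SE; adjusted p = 0.499 by edgeR). The region in Stra6, which encodes a cell-surface receptor for retinol uptake, also lay within another gene and held 13, 10 and 12 tags in Cont Ad_Cre libraries and 7, 8 and 7 in Cont Ad_Cont libraries, with a log2 fold change of 0.55 ± 0.239 (SE; adjusted p = 0.552 by edgeR). The fourth with an unadjusted p under 0.05 lay 112762 bp upstream of Mtap and held 11, 10 and 12 tags in Cont Ad_Cre libraries and 7, 8 and 7 in Cont Ad_Cont libraries (log2 fold change 0.47, adjusted p = 0.641 by edgeR). In each of these 4 the groups did not overlap, which adds no support, since they were picked by their low p. At 7 to 14 tags per library none passed the adjusted threshold. The other regions with the lowest p among those lower in Ad_Cre, in Kcnn4 and Prss53, had log2 fold changes of -0.45 and -0.43. The P3h1 and Alas1 regions had log2 fold changes of 0.07 ± 0.198 and 0.37 ± 0.197 (SE; adjusted p = 0.965 and 0.674 by edgeR). At Alas1 the counts were 29.3 ± 4.93 tags with Ad_Cre and 21 ± 2.65 with Ad_Cont (SD, n = 3 each), and every Cont Ad_Cre count was above every Cont Ad_Cont count. How many of all regions tested had groups without overlap was not counted, so no weight is put on it at any region named.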

How the data were processed

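ATAC-seq of 12 mouse hepatocyte libraries was used, in 4 groups of 3 read from the sample titles. The 8 HepG2 libraries of the series were not used here. Bowtie2, HOMER and the builds mm10 and hg38 are named, with no version, in the submitters' processing notes. How reads were shifted, duplicates handled and peaks thresholded is not given in the sources used here. Every file deposited by the authors lists 1 library's peaks, nearly all 200 bp wide, and a count of tags for each. The files carry no header, and whole numbers with unequal totals were read as raw counts. The lists leave out what lies below their lowest count, and 0.151% of peaks, on other chromosomes, were left out here.

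Peaks overlapping by at least 1 bp were merged, taking each library's highest count in a region. The regions and gene lists were chosen with earlier results of these data known. A region's gene is the closest protein-coding one at most 50 kb away, from RefSeq (GRCm38.p6, the assembly of mm10), and strands came from the RefSeq promoter table. Named in the text are the 12 strongest regions in each direction (in both, the cut fell within a tie, with Tspan18 and Ctdspl outside it), up to 10 more within 1 kb of a gene end, those assigned to a listed gene, genes with 3 or more regions, and, where none was called, the 3 with the lowest p in each direction of the Ad_Cre comparison. Rnf213 and the regions without a neighbour within 5 kb were named after their values were seen. Ad_Cre was tested against Ad_Cont with edgeR 4.0.16 in R 4.3.3 (TMM, glmQLFit with legacy set to FALSE, no replicate block), with Benjamini-Hochberg adjustment over all regions fitted, and tested on simulated data. DESeq2 1.42.0 and limma 3.58.1 were alternatives. Merging, tables and exact permutation tests used Python 3.11.15, pandas 2.3.3, numpy 2.4.6 and scipy 1.17.1. Intervals are Wilson 95% intervals and cover counting error only.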

Additional observations from a re-analysis of the deposited data

Results flagged for a closer look

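In 55 groups of 6 values tested (the tags of each named exclusive region in the libraries of its condition, and the list lengths), 4 had 1 library whose gap to the nearest of the others exceeded 0.625 of the range of the 6, Dixon's 95% limit. Chance flags about 1 in 20 groups. The Plac1 region exclusive to B2_minus held 14 tags in Ad_Cont replicate 3, against 8 to 10 in the other 5 B2_minus libraries. The Kcnn4 region exclusive to Cont held 14 tags in Ad_Cont replicate 1, against 8 to 10 in the other 5 Cont libraries. The Hdac3 region exclusive to Cont held 10 tags in Ad_Cre replicate 3, and the Fes region exclusive to Cont held 10 tags in Ad_Cre replicate 2, each against 7 to 8 in the other 5 Cont libraries. All 4 gaps are of 2 to 4 tags.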

How the results depend on the processing

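The counts of 45 regions exclusive to B2_minus and 76 exclusive to Cont depended on the lists and on the merging. Requiring an overlap of 100 bp gave 63 and 61, merging peaks up to 100 bp apart 34 and 74, and up to 400 bp apart 19 and 70. Peaks of at least 10 tags gave 30 and 85, of which only 2 and 1 were among the original regions. Peaks of at least 8 tags gave 16 and 122, with 6 and 16 of the original regions. Lists of equal length gave 71 and 35, with 20 and 19 of them. The 400 bp and 8 tag settings were chosen after seeing the data. The Ad_Cre libraries alone, merged anew, gave 1646 and 3193, and the Ad_Cont libraries alone 2343 and 1777. Leaving out 1 library, which loosens the rule, gave 65 to 102 and 100 to 191, highest without Cont Ad_Cre replicate 3 for B2_minus and without Cont Ad_Cont replicate 1 for Cont. Counting all annotated genes, the share over 50 kb from a gene fell to 2.22% and 1.32%, by more genes alone. The list length difference ran from -38774 to -22685 with 1 library left out, and passed 0.05 in 1 case, without Cont Ad_Cont replicate 1 (-38774). Calls for Ad_Cre against Ad_Cont, 3 in B2_minus and 6 in Cont, were 0 and 0 with edgeR bounded at Poisson, with DESeq2 and with limma. With 1 library left out they ran from 0 to 8 in B2_minus (0 without Ad_Cre replicate 1 or Ad_Cont replicate 1) and from 0 to 11 in Cont (0 without Ad_Cre replicate 3). No exclusive region was called in any of these fits, nor with listed tags as library size or a mean of at least 10 tags, which left 6 and 7 exclusive regions. Correlations of deviations ran from 0.0017 to 0.0104 between same-numbered libraries and from -0.0126 to 0.00386 between differently numbered ones. Values this close to zero do not settle whether replicate numbers pair the libraries. The fit with a replicate block made 3 calls in B2_minus and 0 in Cont. Cause was not tested for these changes. Low counts limit what can be seen at these sites.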

Other observations

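Some further regions are given here as values, picked by eye after they were seen and with no share set beside them. For B2_minus a region of 7.83 mean tags overlapped 7 genes, among them Ugt1a8, a gene of the cluster that encodes glucuronidating enzymes. A region of 8.67 mean tags lay 15966 bp from Cbr1, which encodes a carbonyl reductase. All 6 Cont libraries had a peak of 14 to 25 tags within 400 bp of that region. For Cont a region of 9.17 mean tags lay 35572 bp from Acsl4, which encodes an acyl-CoA synthetase that prefers arachidonic acid, and a region of 7.83 mean tags lay 1072 bp from Faah, which encodes an enzyme that hydrolyses fatty acid amides. A region of 8.17 mean tags lay inside Mecom, which encodes a zinc finger transcription factor. Beyond the 50 kb limit, and so assigned to no gene, a B2_minus region of 9.33 mean tags lay 50959 bp from Gadd45a, and Cont regions of 8.83 and 8.17 mean tags lay 191207 and 309329 bp from Bmp4. Within 400 bp of the region nearest Gadd45a, all 6 Cont libraries had a peak of 9 to 18 tags.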
